A study of Homo sapiens with 9 samples.

Results

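Runs of tandemly repeated genes, the REXO1L array on chromosome 8 and the USP17L array on chromosome 4, are described here in LNCaP cells, an established human prostate cancer line. The widest H3K27me3 regions of both arrays, and most EZH2 peaks of the REXO1L array, ranked high by tags in their lists. The members were all listed regions that overlapped hg19 chr8:86550000-86850000 or chr4:9200000-9400000 by at least 1 bp, which gave 117 of 335291 regions in 6 lists. Of these, 97 lay in the REXO1L array and 20 in the USP17L array. Both arrays were chosen by measured values, namely the EZH2 and H3K27me3 tags of these libraries, so their levels are given as a description with no test.

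The study immunoprecipitated EZH2, H3K27ac and H3K27me3 from LNCaP cells labelled shEZH2, which were infected with a lentivirus that knocks down EZH2, and from LNCaP cells labelled plko.1, called control here. Cells were fixed in 1% paraformaldehyde 2 to 3 days after infection, and the antibody for EZH2 was the one labelled EZH2(CST). Each of the 6 combinations of cells and antibody was 1 library, so no difference between shEZH2 and control has a replicate check, and the knockdown itself was not measured in the files used here. The other 3 of the 9 samples, with androgen (R1881) or HA-tagged EZH2, were not analysed here. Markers of LNCaP were not checked, because no hg19 gene annotation was used.

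The methyltransferase EZH2 is the enzyme of the Polycomb complex PRC2, and its product H3K27me3 marks silent chromatin. H3K27ac sits on the same lysine at active promoters and enhancers, so both marks cannot share 1 histone tail. REXO1L genes are repeated relatives of the RNA exonuclease gene REXO1. USP17L genes encode deubiquitinating enzymes of the USP17 (DUB3) family, which remove ubiquitin from proteins, and lie in a megasatellite whose copy number differs between people. RefSeq (GRCh38.p14) lists 11 REXO1L entries on chromosome 8, all as pseudogenes, 1 of them transcribed, and REXO1L1 is among them as REXO1L1P. It lists 29 USP17L genes, of which 23, including USP17L15, are on chromosome 4 and 6 on chromosome 8. Of those on chromosome 4, 19 are protein-coding and 4 are pseudogenes.

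A caution applies to every value. Copies of such arrays are near-identical, so a tag can match several of them, and how such tags were placed is not given in the sources used here. Values are therefore tags collected by the array as assembled in hg19 and cannot be assigned to REXO1L1, USP17L15 or any other copy. The number of copies in LNCaP was not measured, no input library was used, and the part of copy number in the levels was not tested. Neither array belongs to the repeat-rich sequence used for comparison below, which means unplaced contigs, mitochondrial sequence and whatever lies within 2 Mb of the longest empty stretch of a chromosome.

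The libraries held 14514395 EZH2 tags in shEZH2 cells and 13331155 in control cells, and between 17438009 and 33289172 tags for the histone marks. Tag values are the authors' normalised tag counts, scaled to 10000000 tags per library, in which the mean of the genome is 4.31 to 4.45 tags per kb. Intervals are exact 95% Poisson or binomial intervals of the unscaled tags or of counts of regions. They cover counting error only. Because every library is scaled to the same total, a change shared by the whole genome cannot be read from these values. The histone marks were called with other settings in the 2 groups: the tags a calling window had to reach correspond to 9.53 tags per kb in shEZH2 cells and 26.0 in control cells for H3K27me3, and 9.47 and 34.4 tags per kb for H3K27ac. Counts and widths of histone regions cannot be compared between groups for that reason, and the tags within matched stretches are used instead.

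Each array had dense stretches on either side of a long stretch in which none of the 6 lists held a region. In the REXO1L array no list held a region within chr8:86576661-86726398, which is 150 kb. In the USP17L array the empty stretch was chr4:9274926-9324589, which is 49.7 kb. Whether these stretches hold assembled sequence in hg19 was not tested. On either side, the shEZH2 library listed 1 continuous H3K27me3 region, and these 4 regions, each over 20 kb wide, are called blocks here.

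**Figure D1:**
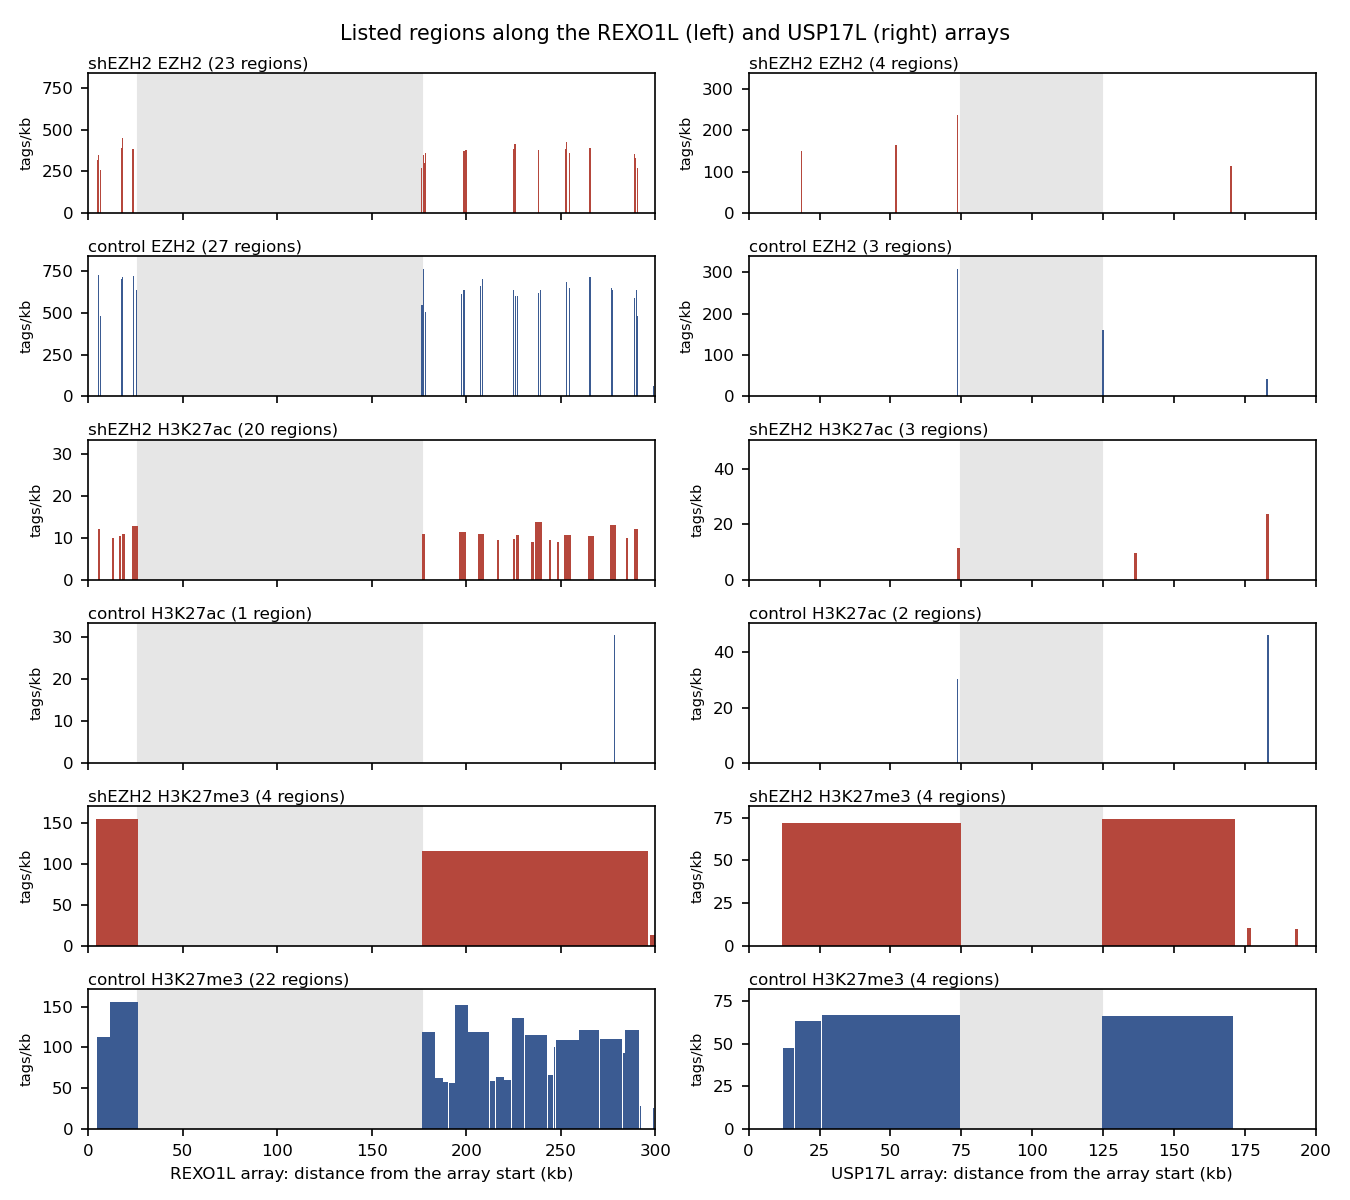
Height of each listed region in normalised tags per kb (vertical axis) against distance from the array start in kb (horizontal axis) for the REXO1L array on the left and the USP17L array on the right, with shEZH2 above control for each antibody. Bars under 0.6 kb wide are drawn at 0.6 kb, and the grey stretch held no region in any list. The dense H3K27me3 blocks and the REXO1L EZH2 peaks lie on either side of it.

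Relative to the library total, H3K27me3 in the blocks was at least as high in shEZH2 cells as in control cells. Block 1 of the REXO1L array, chr8:86553999-86576660, held 3532.2 tags or 156 tags per kb in the shEZH2 library, and the 2 control regions within it held 3067.3 tags or 141 tags per kb. Block 2, chr8:86726461-86845889, was 119.4 kb wide and held 13810.8 tags or 116 tags per kb in the shEZH2 library, and the 19 control regions within it held 11742.7 tags or 107 tags per kb. By tags it was number 5 of the 99251 shEZH2 H3K27me3 regions. The log2 ratios of tags per kb, shEZH2 over control, were 0.14 (0.10 to 0.18) and 0.11 (0.086 to 0.13).

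The USP17L blocks were less dense and differed in the same direction. Block 1, chr4:9211860-9274925, held 4536.8 tags or 71.9 tags per kb in the shEZH2 library, and its 3 control regions held 4030.1 tags or 65.1 tags per kb. Block 2, chr4:9324729-9371319, held 3467.1 tags or 74.4 tags per kb in the shEZH2 library, and its 1 control region held 3068.9 tags or 66.3 tags per kb. The log2 ratios of tags per kb were 0.14 (0.11 to 0.18) and 0.17 (0.13 to 0.21). Control regions covered 91.5% to 99.4% of the 4 blocks, so the compared stretches are nearly the same.

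**Figure D2:**
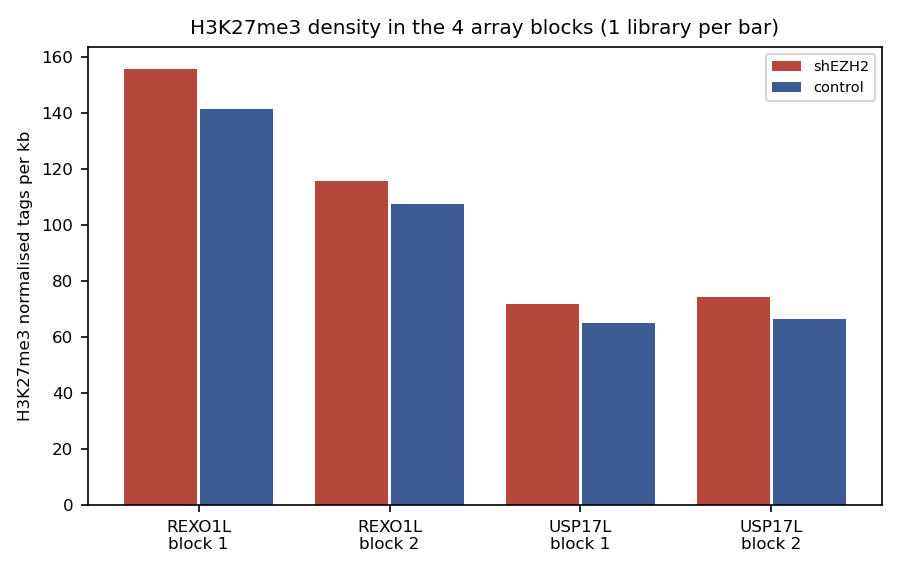
H3K27me3 density in normalised tags per kb (vertical axis, from 0) in the 4 blocks, shEZH2 bars on the left and control bars on the right of each pair, with 1 library per bar and no error bars. The shEZH2 bars stand between 71.9 and 156 tags per kb and the control bars between 65.1 and 141 tags per kb.

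The ratios can be set beside those of other wide regions. All 504 shEZH2 H3K27me3 regions of at least 20 kb had a median log2 ratio of tags per kb of -0.44, with 22 above 0, but control regions covered a median of 46.8% of them. Of the 504, 27 were covered to at least 80% by control regions, as the 4 blocks were. Of these, 14 lay elsewhere and outside repeat-rich sequence, and their log2 ratios of tags per kb had a median of 0.031 and ran from -0.65 to 0.28, with 10 above 0. The 9 in repeat-rich sequence had a median of -0.23. The 4 array values of 0.11 to 0.17 lie inside the range of those elsewhere.

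Summed over the arrays, the REXO1L regions held 17430.7 H3K27me3 tags over 149 kb in shEZH2 cells and 14824.7 tags over 131.6 kb in control cells, which is 26.3 and 25.3 times the genome mean per kb. The USP17L regions held 8027.9 tags over 112 kb in shEZH2 cells and 7099.0 tags over 108.2 kb in control cells, 16.1 and 14.7 times the genome mean. The log2 ratio of summed tags was 0.23 in the REXO1L array and 0.18 in the USP17L array, and per kb it was 0.054 and 0.13. In both arrays the direction turned when tags were expressed as a share of all tags in listed regions. The REXO1L share was 0.422% in shEZH2 cells and 0.918% in control cells, and the USP17L share was 0.194% and 0.439%, with log2 ratios of -1.12 and -1.18. The shEZH2 list holds 4129000 normalised tags and the control list 1615330, so that share moves with how much was listed.

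The stretches of equal length on either side of the arrays, 300.0 kb for REXO1L and 200.0 kb for USP17L, lacked such density. Their H3K27me3 regions held 11.9 to 16.9 tags per kb in the shEZH2 library and 29.2 to 30.0 tags per kb in the control library, near the densities a calling window had to reach. Some of the members are of that kind too. At the lower bound of the REXO1L array a shEZH2 region at chr8:86549039-86550039 entered with its upper end only and held 9.15 tags. The next one below, just outside, was chr8:86543850-86549001 with 12.8 tags per kb. At the upper bound the shEZH2 region chr8:86847432-86853330 spans the limit with 13.3 tags per kb, and the nearest control region outside, chr8:86850136-86850286, held 5.41 tags.

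Scaled EZH2 tags in the REXO1L array were lower in shEZH2 cells at every peak listed in both libraries, while scaled H3K27me3 tags over the same blocks were not. Whether the absolute amount of H3K27me3 was kept cannot be read from scaled tags. The shEZH2 list held 23 peaks with 38.6 to 68.2 tags per window of 151 bp, median 55.1. The control list held 27 peaks, of which the 26 in the blocks had 87.8 to 139.5 tags per window of 183 bp, median 116.3. The groups do not overlap: the highest shEZH2 peak, chr8:86568008-86568158 with 68.2 tags, is below the lowest control peak of the blocks. Per kb of window, the shEZH2 peaks had 256 to 452 tags and the control peaks 480 to 762. Dividing by length does not remove any other effect of the differing windows on the density, and that part was not tested. The medians of the whole lists were 63.9 and 57.4 tags per kb.

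The control peak with the most tags was chr8:86727294-86727476 in block 2, with 139.5 tags (120.2 to 161.1), at place 96 of 23060 in its list. Its shEZH2 partner, chr8:86727371-86727521, held 52.4 tags (41.3 to 65.5), a log2 ratio of -1.41. The remaining control peak, chr8:86848864-86849046, lies outside the blocks at place 8717 with 11.3 tags, near its list's median of 10.5. Without it the array's control peaks are all within places 96 to 206, and the shEZH2 peaks are within places 221 to 428 of 9493.

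Of the 23 shEZH2 peaks 16 overlapped a control peak, or 69.6%, against 56.2% of the whole shEZH2 list. Of the 27 control peaks 16 were called again, 59.3% (38.8 to 77.6), against 23.1% of the whole control list. At these 16 pairs the log2 ratio of tags ran from -1.41 to -0.77 with a median of -1.12, and per kb from -1.14 to -0.50 with a median of -0.84. Per window all 16 were at least 1.5-fold lower in shEZH2 cells, against 55.0% of the 5330 pairs in the whole lists. Per kb 14 of the 16 were, against 37.5%. The pairs stand in 1 array whose copies may share tags, and come from 1 library per group, so they are not replicates of the difference.

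The difference at the pairs was larger than the median of all pairs in the whole lists. A pair needs a listed peak in both libraries, so a control peak whose shEZH2 tags fell below the calling limit is left out. The whole-list pairs hold fewer tags per peak than the REXO1L pairs and so lie closer to that limit. The part of this in the comparison was not tested. The same limit holds for the whole-list shares of pairs at least 1.5-fold lower. All 5330 pairs had a median log2 ratio per kb of -0.39, the 643 pairs in repeat-rich sequence 0.19, and the 29 pairs in the protocadherin gene cluster on chromosome 5, another run of clustered gene copies, -0.66. Summed over the REXO1L array, EZH2 was 1242.4 tags in shEZH2 cells and 3039.0 tags in control cells, a log2 ratio of -1.29 (-1.37 to -1.21), or -0.78 per kb. As a share of the tags in listed peaks it was 0.716% in shEZH2 cells and 0.838% in control cells, a log2 ratio of -0.23. At the pairs that share gave a median of -0.056.

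**Figure D3:**
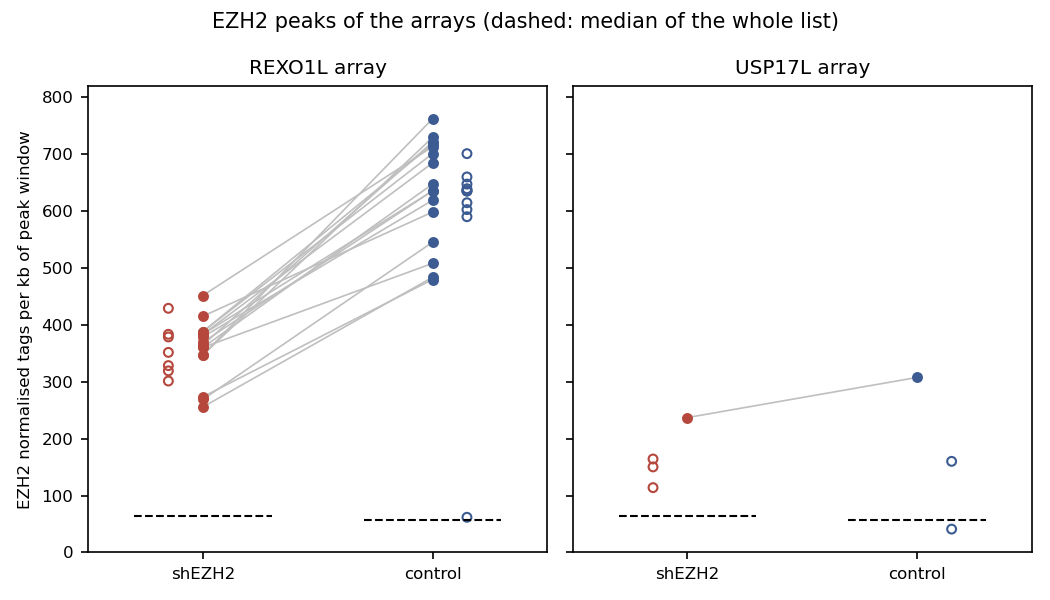
EZH2 normalised tags per kb of peak window (vertical axis) for each peak of the REXO1L array on the left and the USP17L array on the right, shEZH2 in red and control in blue. Filled points joined by a line are peaks that overlap between libraries, open points have no partner, and dashed lines are whole-list medians (63.9 and 57.4). In the REXO1L blocks the shEZH2 points, 256 to 452, lie below the control points, 480 to 762.

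EZH2 peaks in the REXO1L blocks had a low fold over their surroundings. The authors' lists give each peak's fold over the surrounding 10 kb, with 4-fold required. In the REXO1L blocks this fold was 4.02 to 6.67 in shEZH2 cells, median 4.72, and 4.08 to 8.23 in control cells, median 4.46. Under 5-fold were 16 of the 23 shEZH2 peaks, against 13.2% of the whole list, and 21 of the 27 control peaks, against 12.1%. The whole-list medians of the fold were 7.93 and 8.25.

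Dividing a peak's tags per kb by that fold gives the density the fold implies for the surroundings, which is the same deposited value on another scale and no separate measurement. It was 52.0 to 96.5 tags per kb in shEZH2 cells and 88.6 to 168 tags per kb in control cells, against whole-list medians of 8.61 and 7.03. That is 11.9 to 22.0 and 20.5 to 38.9 times the genome mean. At the 16 pairs the implied surroundings were lower in shEZH2 cells by a median log2 of -0.77, with a range of -0.92 to -0.70. The whole-list pairs had a median of -0.32, and 24.7% of them were at least 1.5-fold lower. The fold was assumed to be over the mean density of the surrounding 10 kb, neighbouring peaks included. Most folds of the REXO1L peaks were under 5 in both lists, so their implied values follow the tags of the peaks. Whether EZH2 between the peaks was lower was not tested.

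The implied surroundings differed with position in a block. Peaks within 5 kb of a block's end had implied surroundings of 60.1 tags per kb in shEZH2 cells and 102 in control cells (medians of 9 and 7 peaks). Peaks farther in had 88.1 and 151 tags per kb (14 and 19 peaks). For a peak within 5 kb of an end, a surrounding 10 kb centred on it reaches past the block. The part of this in the difference was not tested. The peaks themselves had medians of 347 tags per kb near the ends and 381 farther in in shEZH2 cells, and of 636 tags per kb in both places in control cells. The 11 control peaks that were not called again are absent from the shEZH2 list, in which 4-fold over the surroundings was required, and are not shown to be without EZH2.

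**Figure D4:**
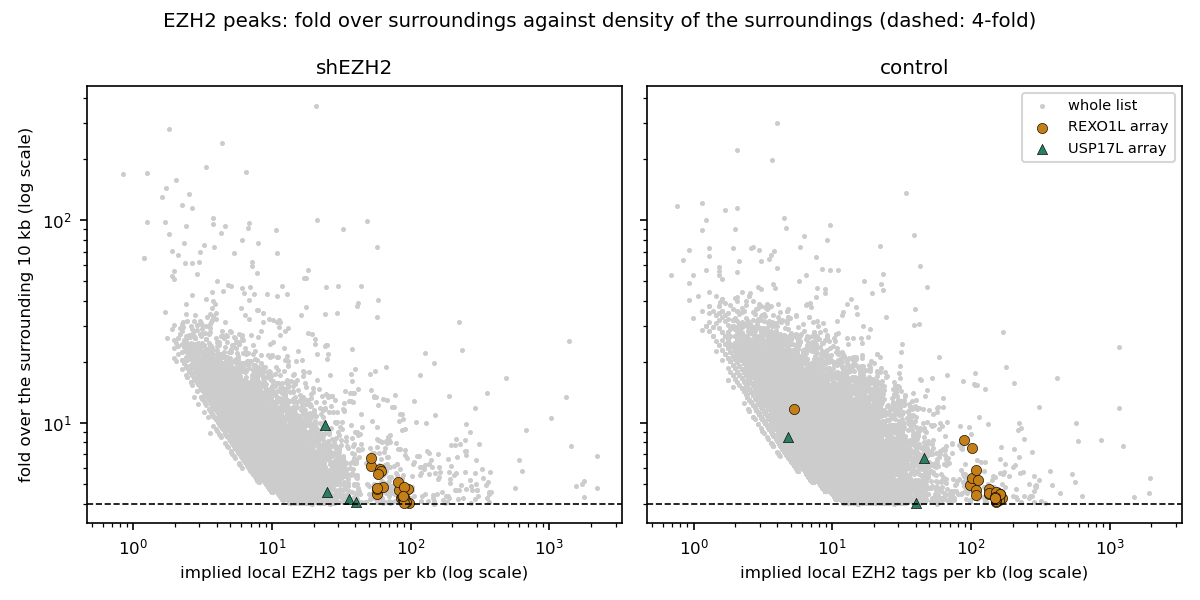
Fold of each EZH2 peak over its surrounding 10 kb (vertical log axis) against the density implied for those surroundings in normalised tags per kb (horizontal log axis), shEZH2 on the left and control on the right, with the whole list in grey and the required 4-fold as a dashed line. The REXO1L peaks of the blocks sit at 52.0 to 96.5 tags per kb in shEZH2 cells and at 88.6 to 168 in control cells, close to the line.

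EZH2 peaks of the REXO1L array came in groups that recurred along the blocks. With a gap of over 5 kb taken as a break, block 2 held 7 groups in the shEZH2 list and 9 in the control list, and block 1 held 3 in each. The shEZH2 groups of block 2 were centred 1.12, 22.9, 49.1, 61.6, 77.0, 89.0 and 113 kb from its start. The control list had groups near each of these, at 1.01, 21.8, 49.6, 62.1, 77.2, 89.0 and 113 kb, and a further pair at 31.6 and 101 kb. Neighbouring groups were 12.0 to 26.2 kb apart in the shEZH2 list, median 18.6, and 9.76 to 20.8 kb apart in the control list, median 12.6. In block 1 the groups stood at 1.75, 13.8 and 19.97 kb in the shEZH2 list and at 2.07, 13.8 and 20.8 kb in the control list.

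H3K27me3 of the control library followed the same groups. Of its 22 REXO1L regions, 12 held a control EZH2 peak, or 54.5%, against 10.3% of the whole list. Within the blocks, the 11 regions with a peak had 109 to 155 tags per kb, median 119, and the 10 without one had 27.9 to 100.3, median 61.0. Within the blocks the densities do not overlap. The remaining region with a peak, chr8:86848880-86849454 outside the blocks, was 575 bp wide with 25.6 tags per kb, below all of these. Within the blocks, regions with a peak were also wider, at 6.56 to 14.7 kb against 0.151 to 4.00 kb. The part of width in this was not tested. Among those without a peak, the 7 over 1 kb wide had 56.8 to 66.7 tags per kb. Across the whole control list the corresponding medians were 34.0 and 28.4 tags per kb.

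**Figure D5:**
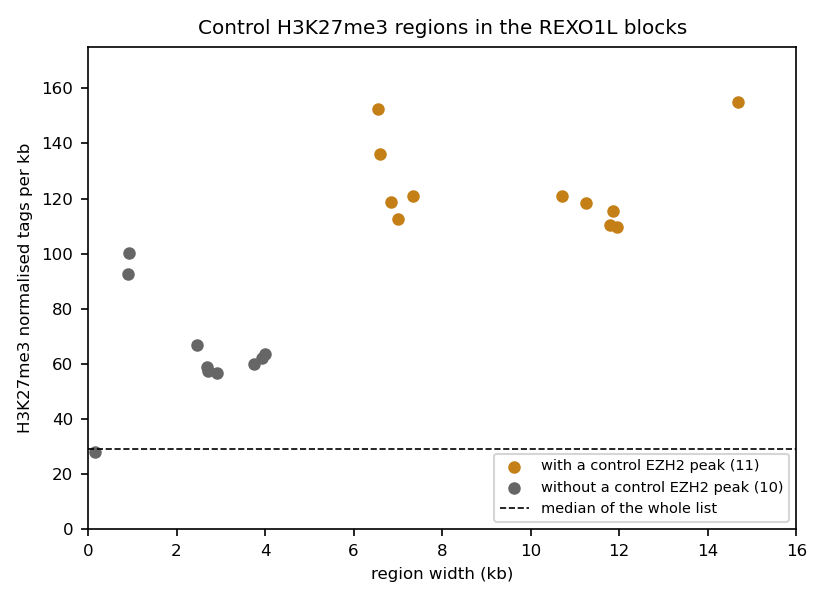
Control H3K27me3 regions of the REXO1L blocks, density in normalised tags per kb (vertical axis) against width in kb (horizontal axis), for 11 regions with a control EZH2 peak and 10 without one, and the whole-list median of 29.0 as a dashed line. Regions with a peak sit at 109 tags per kb or above and regions without one at 100.3 or below.

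The control region with the most tags, chr8:86561761-86576452 in block 1, was 14.7 kb wide and held 2280.0 H3K27me3 tags. It was also the widest and the densest of the array's control regions, at 155 tags per kb. All 23 shEZH2 EZH2 peaks of the array lay in shEZH2 H3K27me3 regions, against 67.8% of the whole list, and all 27 control peaks in control H3K27me3 regions, against 44.2%. The 23 shEZH2 peaks also all lay in control H3K27me3 regions, against 60.9%. Of the 4 shEZH2 H3K27me3 regions, 3 overlapped a control region, against 36.8% of the whole list, and the 2 blocks held shEZH2 EZH2 peaks, against 4.23%. Every one of the 22 control H3K27me3 regions overlapped a shEZH2 region, against 94.1%. Both arrays were chosen by EZH2 and H3K27me3 tags of these libraries, so such overlaps, here and in the USP17L array, are description and show no enrichment.

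The USP17L array held few EZH2 peaks, and the direction of the difference in their tags depended on the scaling. The shEZH2 list held 4, with 22.7 tags at chr4:9218593-9218743, 24.8 tags at chr4:9251767-9251917, 35.8 tags at chr4:9273572-9273722 and 17.2 tags at chr4:9369953-9370103. The control list held 3, with 56.3 tags at chr4:9273555-9273737, 29.3 tags at chr4:9324832-9325014 and 7.5 tags at chr4:9382659-9382841. By tags the shEZH2 peaks were at places 454 to 1449 of 9493, and the control peaks at places 449 to 18719 of 23060. The sums were 100.5 tags in shEZH2 cells and 93.1 in control cells, a log2 ratio of 0.11 (-0.24 to 0.47) whose interval includes 0. As a share of the tags in listed peaks they were 0.0579% in shEZH2 cells and 0.0257% in control cells, a log2 ratio of 1.18. The lists share 1 peak, at the inner end of block 1, which is 1 of 4 shEZH2 peaks, against 56.2% of the whole list, and 1 of 3 control peaks, against 23.1%. There the log2 ratio was -0.65 (-1.19 to -0.12), or -0.38 per kb, and on the share of listed tags it turned to 0.41.

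Within the blocks, the shared peak had the highest fold over its surroundings, at 9.77-fold in shEZH2 cells and 6.73-fold in control cells. The other 3 shEZH2 peaks were at 4.08-fold to 4.58-fold and the control peak of block 2 at 4.02-fold. The shared peak lies 1.28 kb from an end of its block. In block 2 the shEZH2 peak lies 1.29 kb and the control peak 0.19 kb from an end. A surrounding 10 kb centred on any of these reaches past the block, and the part of this in the folds was not tested. The 4 shEZH2 peaks lay in shEZH2 H3K27me3 regions, against 67.8% of the whole list, and 2 of the 3 control peaks in control H3K27me3 regions, against 44.2%. The third control peak was outside the blocks, at the edge of a control H3K27ac region at chr4:9382780-9383165. The H3K27me3 blocks of USP17L were thus covered over 46.6 to 63.1 kb in the shEZH2 library with 1 and 3 EZH2 peaks in them, where block 2 of REXO1L had 16.

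H3K27ac was low in the REXO1L array and close to the density a calling window had to reach. In the REXO1L array the shEZH2 list held 20 regions with 9.01 to 13.7 tags per kb, median 10.6, against a list median of 15.9, and the control list held 1 region, chr8:86828128-86828278, with 4.59 tags. That region lay in control H3K27me3, as did 2.08% of its list, and within 1 of the 20 shEZH2 regions. Of the whole shEZH2 list, 59.0% overlapped a control region. The highest of the shEZH2 densities, at chr8:86786212-86789998 with 51.9 tags, is below the 34.4 tags per kb that a control window had to reach, and below 19.2 tags per kb, the lowest of any region in the control list. The summed tags of 464.5 and 4.59 therefore compare what was called, and per kb the log2 ratio was -1.43, the other direction. The shEZH2 regions stood at 2.61 times the genome mean, where H3K27me3 in the array stood at 26.3 times.

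The H3K27ac regions of the shEZH2 library followed the EZH2 groups. All 20 lay in shEZH2 H3K27me3 regions, against 3.95% of the whole list. Of the 20, 11 held a shEZH2 EZH2 peak, against 5.32%, and 14 a control EZH2 peak, against 13.6%. Counted from the peaks, 22 of the 23 shEZH2 EZH2 peaks lay in a shEZH2 H3K27ac region, against 39.7% of the whole list and 61.3% of repeat-rich sequence, and 24 of the 27 control peaks did so, against 41.8%. None of the 23 shEZH2 EZH2 peaks lay in a control H3K27ac region, against 29.8%. No control EZH2 peak of the array lay in a control H3K27ac region (0 of 27, up to 12.8%), against 34.4%. Whether a like H3K27ac density was present in control cells cannot be read from lists with these thresholds, and no input library shows what the array collects without an antibody.

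In the USP17L array the shEZH2 list held 3 H3K27ac regions, each 1001 bp wide, and the control list 2. At the inner end of block 1, chr4:9273437-9274437 had 11.3 tags in the shEZH2 library and chr4:9273504-9273654 had 4.59 tags in the control library. Outside the blocks, chr4:9382511-9383511 had 23.9 tags in the shEZH2 library, and chr4:9382780-9383165 had 17.8 tags over 386 bp in the control library. The third shEZH2 region, chr4:9335980-9336980, had 9.47 tags. The region outside the blocks is the densest H3K27ac of either array in both libraries, at 23.9 tags per kb in shEZH2 cells and 46.1 in control cells.

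The lists also bear on tags repeated at single positions. The caller's score counts at most 1 tag per position, and its ratio to the unscaled tags was taken for each EZH2 peak. The REXO1L peaks had medians of 0.88 in shEZH2 cells and 0.81 in control cells, against whole-list medians of 0.89 and 0.86. Their clonal fold ratio, the authors' observed over expected tags per position, had medians of 0.82 and 0.76, against 0.96 and 0.97. The USP17L peaks, 4 in shEZH2 cells and 3 in control cells, had median score ratios of 0.99 and 0.90. Their median clonal fold ratios were 0.84 and 0.93. The REXO1L peaks of the blocks hold several times more tags per window than the list's median peak, and the part of that in either ratio was not tested.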

How the data were processed

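The 6 ChIP-seq peak lists used are from 1 library each, of shEZH2 and control LNCaP cells. The submitters' processing notes name BWA 0.6.1, HOMER 4.1 and the build hg19. The authors deposited, per the file headers, a normalised tag signal scaled to 10000000 tags per library, a peak score that counts at most 1 tag per position, a clonal fold ratio, and, for EZH2, the focus ratio (a fraction), the fold over the local 10 kb and its p-value, which is not printed. The EZH2 caller used fixed windows of 151 bp (shEZH2) and 183 bp (control), per the file headers, at a false discovery rate of 0.001 and 4-fold over the local 10 kb. Histone regions were called with 1000 bp windows at a Poisson p of 0.001 in shEZH2 cells, and with 150 bp windows joined within 370 bp at a false discovery rate of 0.001 in control cells. No input was used.

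From these, regions overlapping either array by 1 bp were taken. Widths include both end bases. Tags before scaling were recovered from the library total and rounded, and exact Poisson, exact binomial (Clopper-Pearson) and ratio intervals at 95% were computed from them (Python 3.11.15, scipy 1.17.1). Overlaps were checked on simulated data. Named regions are those with the most tags, the highest score, the largest width or the highest density in each array and list. Others were named after their values were seen. RefSeq GRCh38.p14 served for gene names only, and no coordinate of it is printed. The members, groupings and lists were chosen with earlier results of these data known. With 1 library per group no test between groups was made. The alternatives concerned the overlap, the array limits, the scaling and the calling threshold.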

Additional observations from a re-analysis of the deposited data

How the results depend on the processing

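Of 118 alternative values, 76 were classed as the same as the reported one, 37 as moved and 5 as reversed. The first class allows for some change. For example, it holds 27 against 22 control H3K27me3 regions of the REXO1L array with limits moved out by 50 kb. It also holds the log2 ratio of USP17L EZH2, 0.11 with an interval that includes 0, which turned to -0.025 per kb. When lists were limited to their upper 50% by score, the REXO1L array held 6 H3K27ac regions in the shEZH2 list and 0 in the control list and 2 shEZH2 H3K27me3 regions, and the USP17L array 1 H3K27ac region in each list. With at least 50% of a region inside, 2 shEZH2 H3K27me3 regions were left in the REXO1L array. With limits moved out by 50 kb, shEZH2 H3K27me3 came to 11 regions and 17666.9 tags in the REXO1L array and 11 regions and 8177.3 tags in the USP17L array. With those limits USP17L H3K27ac came to 153.4 tags in shEZH2 cells and to 4 regions and 101.5 tags in control cells, and USP17L EZH2 in control cells to 5 peaks and 111.9 tags. The log2 ratio of USP17L EZH2 was then -0.15 and within counting error.

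As a percent of all tags in listed regions, the REXO1L array held 0.716 of EZH2, 0.00788 of H3K27ac and 0.422 of H3K27me3 in shEZH2 cells, and 0.838, 9.95e-05 and 0.918 in control cells. The USP17L array held 0.0579, 0.000758 and 0.194 in shEZH2 cells, and 0.0257, 0.000485 and 0.439 in control cells. The log2 ratios on that scale were -0.23 for REXO1L EZH2 and 1.18 for USP17L EZH2, and they changed sign for H3K27me3, to -1.12 in REXO1L and -1.18 in USP17L. At the EZH2 pairs they were -0.056 in REXO1L and 0.41, with a changed sign, in USP17L. These shares divide by all listed tags, which were 173627 in shEZH2 cells and 362592 in control cells for EZH2, and the cause of the change was not tested.

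Per kb the log2 ratios were -0.78 for REXO1L EZH2 (-0.84 at the pairs), 0.054 for REXO1L H3K27me3 and 0.13 for USP17L H3K27me3. They changed sign for H3K27ac, to -1.43 in REXO1L and -1.49 in USP17L, against 6.66 and 1.00 for summed tags. For USP17L EZH2 the ratio was -0.025 per kb against 0.11 for summed tags, both within counting error of 0. As summed tags, H3K27me3 of the REXO1L blocks had log2 ratios of 0.20 and 0.23. With at least 50% of the peak covered, 1 of the 3 USP17L control EZH2 peaks lay in H3K27ac. The ratios by block and the moved limits for ratios were chosen after seeing the data.

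No paired analysis was possible because each group has 1 library per antibody, and for that reason no replicate was left out. The planned share of 36-base stretches of USP17L promoters was not run. The USP17L EZH2 peaks hold 10 to 75 tags before scaling, which sets the width of their intervals.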
